A study of Mus musculus with 15 samples.

Results

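Mitochondrial ribosomal protein genes were followed in gonadal white adipose tissue, the fat pad beside the epididymis of male mice. They were taken as the genes whose array probe sets carried a single symbol beginning with Mrpl (large subunit) or Mrps (small subunit) and a number, with the probe set of highest mean level standing for a gene that had several. This gave 77 of 19938 named genes, 48 of the large and 29 of the small subunit. Of 85 probe sets in all, 69 genes had 1 and 8 genes had 2, and 1 further probe set, shared by Ccdc142 and Mrpl53, was left out because it carried several symbols. All 77 genes are protein coding in the RefSeq gene table and lie on 17 chromosomes.

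The mice were C57BL6/J males, 7 wild type and 8 Sfrp5 KO, with 1 array per mouse. Sfrp5 encodes a secreted binder of Wnt ligands made by adipocytes, and the KO allele carries a stop codon, labelled Q27Stop; the labels name no restriction to a tissue or time. Every mouse in both groups ate a high-fat diet from 4 to 12 weeks of age, 8 weeks in all, and no mouse on another diet was among the arrays. The labels do not say whether the groups were littermates.

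Mitochondria keep their own ribosomes, which translate the few proteins encoded by mitochondrial DNA, all of them parts of the respiratory chain and ATP synthase. The ribosomal RNAs come from mitochondrial DNA, but every ribosomal protein is encoded in the nucleus, made in the cytosol and imported. Some descend from bacterial ribosomal proteins and others were added in the mitochondrial lineage. Of the genes measured here, 46 were classed as the former and 30 as the latter. Mrps18a and Mrps18b were counted among the 30, although they are relatives of a bacterial ribosomal protein. The 1 gene left, Mrps36, was classed as neither, since its product is now known as a subunit of the 2-oxoglutarate dehydrogenase complex. Adipocytes use mitochondria for fatty acid oxidation and to supply precursors for lipid synthesis.

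RefSeq start-site windows (GRCm38.p6, 250 bases before to 50 after each annotated start) were matched for 68 genes, with 74 windows. The 9 genes without one were Mrpl4, Mrpl13, Mrpl15, Mrpl19, Mrpl38, Mrpl54, Mrps28, Mrps34 and Mrps35. Of the 68, 19 (27.9%) had the start of another protein-coding gene on the opposite strand within 250 bases, facing away, compared with 5.89% of all 17492 coding genes with a window. These head-to-head pairs share one short stretch of upstream DNA, and 8 of the 18 such stretches, chosen after the values were seen, are shown because the gene at one end had the lowest p of the module (Mrps18c), had 1 of the 10 highest differences (Mrpl32, Mrps27, Mrpl57, Mrpl37), was paired with another gene of mitochondrial translation or DNA maintenance (Mrps12, Mrpl43), or was paired with a member of the other subunit (Mrps11). All are on the plus strand, and capitals mark matches on either strand to CCGGAAG, a core of sites of the ETS family to which Gabpa belongs, or to GCGCA followed after any 1 base by GCGC, a core of nuclear respiratory factor 1 sites.
Mrps18c and Helq: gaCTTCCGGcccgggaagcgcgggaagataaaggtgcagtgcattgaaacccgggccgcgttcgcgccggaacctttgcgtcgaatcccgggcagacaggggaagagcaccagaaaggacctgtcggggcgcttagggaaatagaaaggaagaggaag
Mrpl32 and Psma2: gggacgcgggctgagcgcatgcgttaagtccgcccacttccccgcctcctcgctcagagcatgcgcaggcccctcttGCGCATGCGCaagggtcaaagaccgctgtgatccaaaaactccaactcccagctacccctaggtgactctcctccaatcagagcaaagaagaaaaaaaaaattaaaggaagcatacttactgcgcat
Mrps27 and Ptcd2: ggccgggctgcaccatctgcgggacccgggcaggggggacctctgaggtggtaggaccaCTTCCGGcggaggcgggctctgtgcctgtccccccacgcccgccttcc
Mrpl57 and Ska3: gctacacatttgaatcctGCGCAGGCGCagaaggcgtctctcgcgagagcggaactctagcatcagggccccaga
Mrpl37 and Cyb5rl: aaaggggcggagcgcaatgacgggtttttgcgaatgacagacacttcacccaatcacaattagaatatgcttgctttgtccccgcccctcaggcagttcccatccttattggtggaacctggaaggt
Mrpl43 and Twnk: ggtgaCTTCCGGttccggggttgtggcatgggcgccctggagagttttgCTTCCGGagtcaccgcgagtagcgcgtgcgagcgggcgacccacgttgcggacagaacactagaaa
Mrps12 and Sars2: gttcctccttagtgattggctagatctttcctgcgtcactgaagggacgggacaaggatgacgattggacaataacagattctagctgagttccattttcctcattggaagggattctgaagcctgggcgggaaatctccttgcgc
Mrps11 and Mrpl46: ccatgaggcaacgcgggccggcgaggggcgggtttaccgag

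The Mrps18c stretch is chr5:100798601-100798758 (158 bases), the Mrpl32 stretch chr13:14613038-14613241 (204 bases), and the Mrps27 stretch chr13:99344679-99344785 (107 bases). Mrpl57 and Ska3 share chr14:57826164-57826238 (75 bases), Mrpl37 and Cyb5rl chr4:107066867-107066993 (127 bases), Mrpl43 and Twnk chr19:45006443-45006557 (115 bases), Mrps12 and Sars2 chr7:28741822-28741967 (146 bases), and Mrps11 and Mrpl46 chr7:78783090-78783130 (41 bases). Mrps18c, Mrps27, Mrpl57 and Mrps11 are transcribed to the right of the printed letters, and Mrpl32, Mrpl37, Mrpl43 and Mrps12 to the left. Psma2 encodes a proteasome subunit, Twnk the helicase of the mitochondrial DNA replication fork and Sars2 the mitochondrial seryl-tRNA synthetase.

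To these are added the 150 bases before the annotated start of the pair of large-subunit genes with the lowest differences in the module, each printed in the direction of transcription. Mrpl16, the homolog of bacterial L16, starts after chr19:11770265-11770414 (plus strand), and Mrpl45, whose product holds the ribosome at the inner membrane, after chr11:97315566-97315715 (plus strand).
Mrpl16: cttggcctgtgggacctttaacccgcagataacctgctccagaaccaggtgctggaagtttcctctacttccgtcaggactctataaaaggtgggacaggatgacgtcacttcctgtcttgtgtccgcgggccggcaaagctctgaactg
Mrpl45: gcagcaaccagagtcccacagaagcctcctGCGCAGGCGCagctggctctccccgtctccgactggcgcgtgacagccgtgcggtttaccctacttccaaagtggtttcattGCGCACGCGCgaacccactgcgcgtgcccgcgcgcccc

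Counted over both strands of the whole windows, the nuclear respiratory factor 1 core was in 13 of 74 windows (17.6%) and in 6.38% of all 21263 coding windows of the same length. CCGGAAG was in 25 (33.8%), compared with 11.6% of all windows. AAGATGGCG, a core of YY1 sites, was in 8 (10.8%), compared with 1.83%. At least 1 of the 3 was in 40 windows (54.1%, all windows 17.95%), at least 2 were in 6 (8.11%, all windows 1.81%), and no matches of different motifs overlapped. Other elements were nearer to the general share: GGGCGG in 52.7% (all windows 46.2%), CCAAT in 39.2% (38.2%), CACGTG in 9.46% (7.84%), AAGGTCA in 5.41% (4.08%) and TATAAA in 6.76% (12.6%). The median GC content was 58.5% in these windows and 56.3% in all.

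The 77 genes were mostly well expressed: their mean log2 levels had a median at the 80.4th percentile of named genes, from 26.8 to 98.7, and 67 were at 8 or above. Before any comparison, the libraries were set against their labels. Sfrp5 averaged 7.92 ± 0.24 (SD, n = 7) where the label said wild type and 6.69 ± 0.40 (SD, n = 8) where it said KO, with every KO array below every wild-type array (limma, adjusted p = 0.0200), and a stop codon need not lower the transcript. The mean of 12 measured adipocyte markers was 11 to 11.44 per array. Epididymis markers (mean of 12) stood at 7.95 in wild-type array 4 and 10.07 in KO array 2 but at 5.45 to 6.66 in the other 13. The module mean and the genes at unadjusted p under 0.05 are therefore also given without that pair.

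The mean of the 77 genes did not separate the genotypes. It was 8.87 to 9.09 in wild type (median 9.05, mean 9.02 ± 0.087, SD, n = 7) and 8.92 to 9.15 in KO mice (median 9.05, mean 9.04 ± 0.078, SD, n = 8), a difference of 0.021 on the log2 scale with a standard error of 0.043. The ranges overlapped from 8.92 to 9.09, and 5 of 8 KO arrays were above the wild-type mean. Among wild-type arrays 7 (8.87) and 4 (8.93) were low and 1 (9.09) was high; among KO arrays 2 (8.92), 7 (8.96) and 4 (8.975) were low and 3 (9.15) and 6 (9.11) were high. When the deposited values were quantile normalized, the means were 9.02 ± 0.063 (SD, n = 7) and 9.03 ± 0.063 (SD, n = 8), a difference of 0.0056 (SE 0.033). Without the arrays of high epididymis markers the difference was 0.023, and without wild-type array 7 it was -0.0030. No p is given for these means, because the genes were chosen with earlier results of these arrays known.

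**Figure D1:**
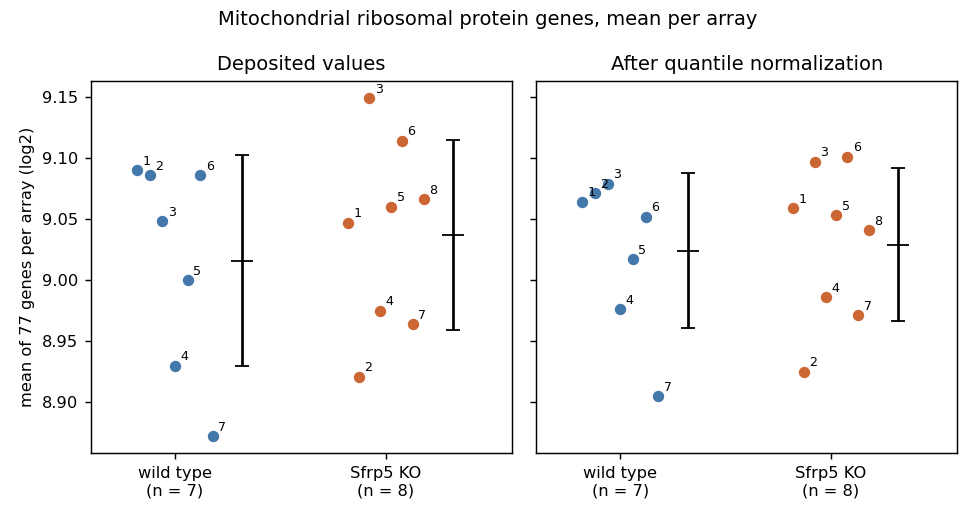
Mean log2 level of the 77 genes in each array, by genotype, on deposited values (left) and after quantile normalization (right); numbers are replicates, and the black marks are the group mean with its SD. The genotypes overlap in both panels, with wild-type array 7 at the bottom (8.872 and 8.905).

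Large and small subunit genes moved together from array to array. With each gene centred on its own mean, the large-subunit mean spanned 0.27 over the 15 arrays and the small-subunit mean 0.30, whereas large minus small spanned 0.091. That contrast was 0.0057 ± 0.029 in the 7 wild-type arrays (SD) and -0.0050 ± 0.029 in the 8 KO arrays (SD), a difference of -0.011 (SE 0.015), and -0.0093 (SE 0.015) after quantile normalization. KO minus wild type was 0.017 (SE 0.042) for the large and 0.028 (SE 0.045) for the small subunit. With Mrps18a and Mrps30 counted in the large subunit, where their products lie in the assembled ribosome, and Mrps36 left out, the contrast differed by -0.0044. Genes classed as of bacterial ancestry minus those classed as mitochondria-specific, Mrps18a and Mrps18b among the latter, likewise differed by -0.0036 (SE 0.013) between genotypes.

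**Figure D2:**
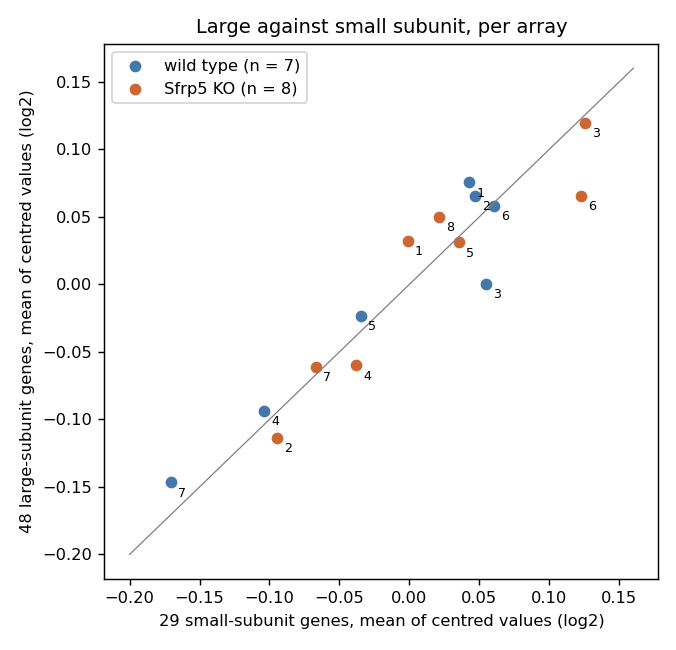
Mean of the 48 large-subunit genes (vertical) against the 29 small-subunit genes (horizontal) in each array, in log2 units after each gene was centred on its own mean over 15 arrays; numbers are replicates and the grey line marks equal values. Arrays of both genotypes lie along the line, with wild-type array 3 and KO array 6 the farthest to its right (contrast -0.055 and -0.057).

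Gene by gene, the differences were small. None of the 77 genes passed limma's adjusted threshold of 0.05, compared with 0.0100% of named genes (2 of 19938, Sfrp5 among them), and the lowest adjusted p was 0.136 (Mrps18c). At an unadjusted limma p under 0.05, 5 genes were higher in KO mice, where 2.30% of all named genes were, and 1 was lower, where 4.39% were. Among the 6664 named genes with a mean level of 8 or more, as most members had, 258 were higher and 206 lower at that threshold. No gene had ranges that lay apart between the genotypes, as 0.110% of named genes did. The differences ran from -0.19 (Mrpl16) to 0.23 (Mrps18c), and 60 of 77 genes (77.9%) were within 0.1 of 0. Of all named genes 68.9% were, and of those with a mean level of 8 or more 74.1%. The limma standard errors, 0.042 to 0.13 with a median of 0.072, set what 7 and 8 arrays could resolve.

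By sign alone, 49 of 77 genes (63.6%) were higher in KO mice, 29 of 48 of the large and 20 of 29 of the small subunit. Of all named genes 44.8% were higher, and of those with a mean level of 8 or more 49.5%. After quantile normalization the count was 40 of 77 (51.9%), and the backgrounds were 42.9% and 40.4%. The change was steepest in the bright genes: of 12 members at a mean level of 10 or more, 9 were higher on deposited values (mean difference 0.041) and 5 after quantile normalization (-0.0056). Named genes of that level went from 59.7% to 37.2% higher. Among bright genes the share of positive signs thus changed with the scaling, in the members and in the background alike. Of the 65 members under that level, 40 were higher on deposited values and 35 after quantile normalization.

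**Figure D3:**
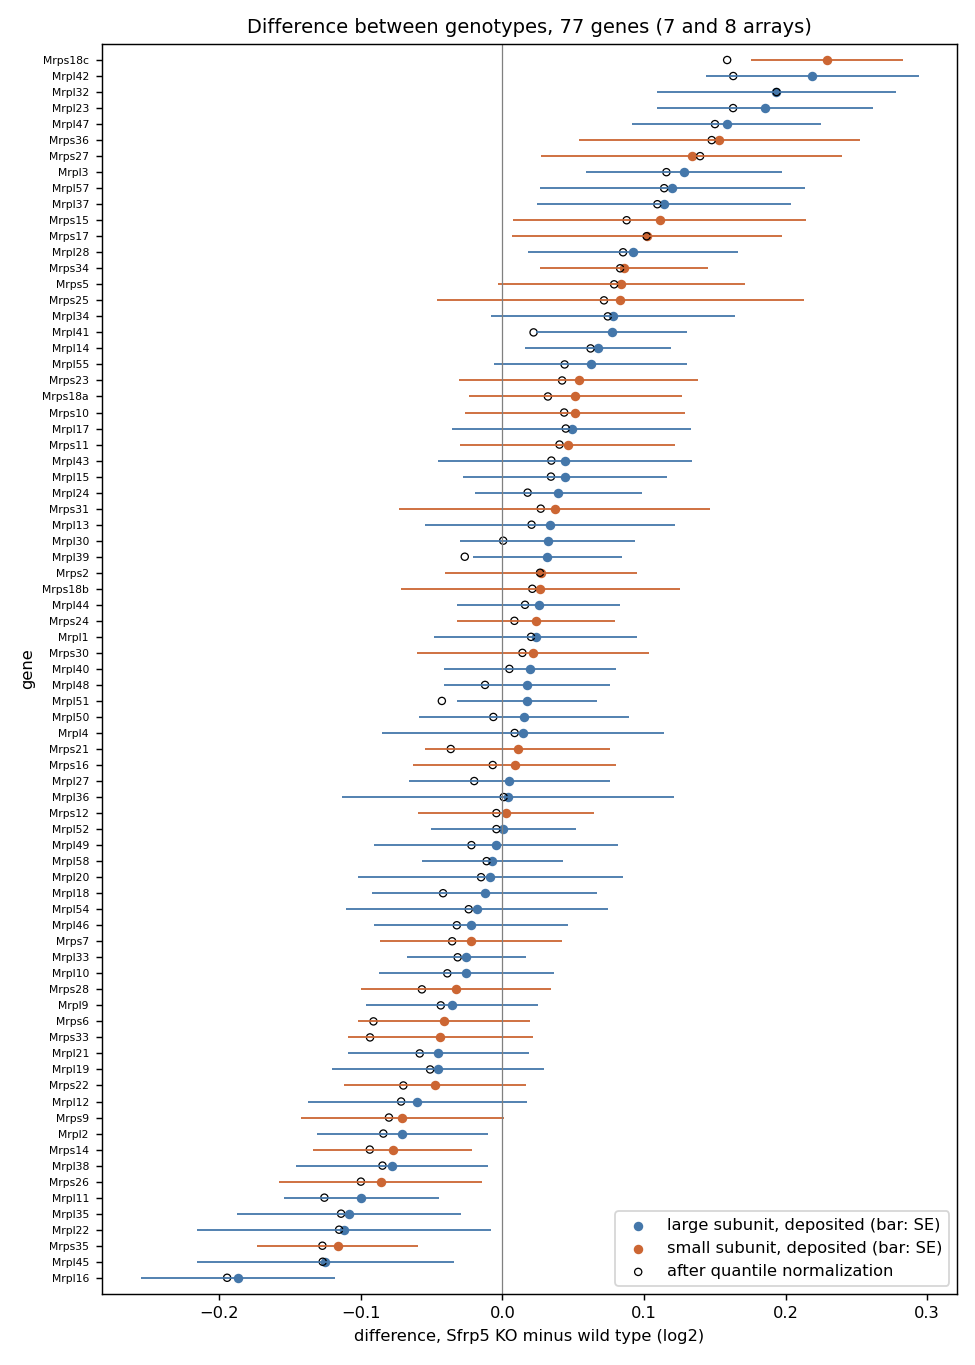
KO minus wild type (log2) for each of the 77 genes, in order, with filled points and limma standard errors for deposited values, coloured by subunit, and open circles for values after quantile normalization. Most points lie within 0.1 of 0, and bright genes such as Mrps18c moved left after quantile normalization (from 0.23 to 0.16).

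Among the small-subunit genes, Mrps18c had the largest difference. It is 1 of 3 mammalian relatives of bacterial S18 and the one that takes the place of S18 in the small subunit. Its level was 11.63 to 11.78 in wild type (median 11.68) and 11.75 to 12.08 in KO mice (median 11.93), or 11.69 ± 0.052 (SD, n = 7) and 11.92 ± 0.11 (SD, n = 8). All 8 KO arrays were above the wild-type mean; the ranges overlapped only between KO array 8 (11.75) and wild-type array 6 (11.78). The difference was 0.23 (SE 0.054, 1.17-fold, limma adjusted p = 0.136) and 0.16 (SE 0.053, adjusted p = 0.349) after quantile normalization. Over 25 other settings the adjusted p ranged from 0.0604 to 0.349. Helq, the DNA helicase gene that shares its upstream stretch, was not measured by a probe set of a single symbol.

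The differences of its relatives were smaller. Mrps18a was 9.59 ± 0.17 in the 7 wild-type arrays and 9.64 ± 0.11 in the 8 KO arrays (SD), a difference of 0.052 (SE 0.076), and Mrps18b was 8.27 ± 0.17 and 8.30 ± 0.22, a difference of 0.027 (SE 0.098). Neither difference exceeded its standard error, and whether the 3 genes' differences are unequal was not tested.

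The other 4 genes with higher values at unadjusted p under 0.05 were of the large subunit. Mrpl42, a mitochondria-specific protein, was 10.87 to 11.35 in wild type (median 11.18) and 11.25 to 11.59 in KO mice (median 11.36), a difference of 0.22 (SE 0.075, limma adjusted p = 0.317). Mrpl32, whose product is trimmed by an inner-membrane protease before it joins the ribosome, was 7.68 to 8.27 (median 8.16) and 8.21 to 8.51 (median 8.22), a difference of 0.19 (SE 0.084, limma adjusted p = 0.461). In both genes all 8 KO arrays lay above the wild-type mean, and the lowest value of all was that of wild-type array 4, 1 of the arrays with high epididymis markers.

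Mrpl23, the homolog of the bacterial exit-tunnel protein L23, was 9.32 to 9.91 in wild type (median 9.605) and 9.68 to 9.96 in KO mice (median 9.81), a difference of 0.19 (SE 0.076, limma adjusted p = 0.432). Mrpl47, related to bacterial L29, was 7.13 to 7.45 (median 7.35) and 7.32 to 7.60 (median 7.48), a difference of 0.16 (SE 0.067, limma adjusted p = 0.444). Wild-type array 7 had the lowest value of both, and the ranges overlapped. Without that array Mrpl23 differed by 0.13, Mrpl47 by 0.13 and Mrpl32 by 0.18, none under an unadjusted limma p of 0.05. Without the arrays of high epididymis markers, 4 members and not 6 had an unadjusted limma p under 0.05. Mrpl32 then differed by 0.14 (limma adjusted p = 0.656) and Mrpl23 by 0.17, neither under that threshold, whereas Mrps18c (0.20), Mrpl42 (0.18), Mrpl47 (0.20) and Mrpl16 (-0.22) stayed under it. Mrpl23 and Mrpl47 each have a second probe set, with differences of 0.17 (SE 0.075) for Mrpl23 and 0.16 (SE 0.097) for Mrpl47.

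Lower values in KO mice were led by Mrpl16, part of the large-subunit core next to the peptidyl transferase centre. It was 8.58 to 8.96 in wild type (median 8.885) and 8.41 to 8.765 in KO mice (median 8.66), and all 8 KO arrays were below the wild-type mean. The difference was -0.19 (SE 0.069, 0.878-fold, limma adjusted p = 0.357) and -0.19 (SE 0.061, adjusted p = 0.306) after quantile normalization. Wild-type array 4 (8.58) was the lowest of its group, and KO array 6 (8.41), an array with a high mean over the 77 genes, was the lowest of all.

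Mrpl16 lies on chromosome 19, which also holds Sfrp5, and so do 4 other members. No share over all genes of chromosome 19 is set beside them here, and an effect of position was not tested. Mrpl11, the homolog of L11 at the base of the factor-binding stalk, differed by -0.10 (SE 0.055), with 7 of 8 KO arrays below the wild-type mean. KO array 3 (10.25) stood apart from the other KO arrays, at 9.97 to 10.09, and the wild-type arrays were at 9.97 to 10.25. Mrpl21 differed by -0.045 (SE 0.064), Mrpl49 by -0.0047 (SE 0.086) and Mrpl43 by 0.044 (SE 0.090). None passed limma's adjusted threshold; after quantile normalization Mrpl11 joined Mrpl16 under an unadjusted limma p of 0.05 (adjusted p = 0.433), as did Mrps35 on chromosome 6 (adjusted p = 0.542).

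The remaining genes with lower values were Mrpl45 (-0.13, SE 0.091), Mrps35 (-0.12, SE 0.057), Mrpl35 (-0.11, SE 0.079), Mrps26 (-0.086, SE 0.072), Mrps14 (-0.078, SE 0.056) and Mrpl2 (-0.071, SE 0.061), which with Mrpl16 and Mrpl11 are the 8 of lowest p on that side. Mrpl45, whose upstream bases hold a pair of nuclear respiratory factor 1 matches, was 7.65 to 8.23 in wild type and 7.55 to 8.04 in KO mice. On the other side Mrpl3, near the peptidyl transferase centre, was 8.78 ± 0.10 (SD, n = 7) and 8.90 ± 0.14 (SD, n = 8), a difference of 0.13 (SE 0.069). Mrps36 differed by 0.15 (SE 0.099) and by 0.21 (SE 0.11) on its second probe set. Mrps34, needed for small-subunit stability, was 7.78 to 8.24 in wild type and held between 8.03 and 8.19 in KO mice, a difference of 0.086 (SE 0.059).

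Named whatever their p, 10 further members had a difference smaller than its standard error, as did many other members. Mrps12, the decoding-site protein homologous to S12, was 8.78 ± 0.11 (SD, n = 7) and 8.79 ± 0.11 (SD, n = 8), a difference of 0.0023 (SE 0.062). Mrps7, an early-binding protein of the head of the small subunit, differed by -0.022 (SE 0.064), Mrps2 by 0.027 (SE 0.068), Mrps5 by 0.084 (SE 0.087) and Mrps16 by 0.0085 (SE 0.071). Mrps22, a mitochondria-specific protein, differed by -0.048 (SE 0.065). Of the stalk proteins, Mrpl10 differed by -0.026 (SE 0.062) and Mrpl12 by -0.060 (SE 0.077); Mrpl44, which has a ribonuclease III fold, differed by 0.025 (SE 0.058) and Mrps30 by 0.022 (SE 0.082).

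Where a gene had 2 probe sets, they gave the same sign in 7 of 8 genes. Mrpl41 was the exception, at 0.077 (SE 0.053) on the brighter set and -0.0073 (SE 0.054) on the other. Mrpl27 gave 0.0049 and 0.095, Mrpl51 0.017 and 0.098, Mrps33 -0.044 and -0.029, and Mrps5 0.084 and 0.046. Probe sequences were not used here, so probe sets that also capture a near-identical copy of a gene could not be told apart.

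In head-to-head pairs, both genes were measured in 17 of 18 pairs, and the signs were the same in 9. Mrps11 and Mrpl46 differed by 0.046 (SE 0.076) and -0.022 (SE 0.069), Mrpl43 and Twnk by 0.044 and -0.12 (SE 0.065), Mrps12 and Sars2 by 0.0023 and 0.068 (SE 0.061), and Mrpl32 and Psma2 by 0.19 and 0.068 (SE 0.047). Mrps27 differed by 0.13 (SE 0.11) and Ptcd2, beside it, by 0.041 (SE 0.098); Mrpl37 differed by 0.11 (SE 0.090) and Cyb5rl by 0.072 (SE 0.076). No partner gene outside the module had an unadjusted limma p under 0.05. By upstream motif, with no test, 8 of 13 genes with the nuclear respiratory factor 1 core were higher in KO mice (median 0.025) and 37 of 55 without (0.022), 17 of 25 with CCGGAAG (0.011) and 28 of 43 without (0.025), and 7 of 8 with AAGATGGCG (0.049) and 38 of 60 without (0.018).

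What the 77 genes shared was their variation between mice of the same genotype. After each genotype's mean was subtracted, the mean pairwise Pearson r over 15 arrays was 0.32 among members, 0.32 within the large subunit, 0.31 within the small and 0.32 between them. It was 0.015 among all named genes, 0.10 among those with a mean level of 8 or more, 0.30 among oxidative phosphorylation genes and 0.26 among cytosolic ribosomal protein genes. Quantile normalization lowered the value for members to 0.20, for genes of level 8 or more to 0.032, for oxidative phosphorylation to 0.27 and for cytosolic ribosomal proteins to 0.16. These values describe 15 arrays whose RNA was amplified with a NuGEN kit, per the labels' protocols, and the values were not tested. Whether the arrays were also normalized together is not stated in the processing notes.

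Single members differed in how closely they followed the others. The r of a gene with the mean of the other 76 had a median of 0.61 and was above 0.5 in 52 genes. It was highest in Mrps14 (0.96), Mrps27 (0.87) and Mrps21 (0.86), which were looked up after their values were seen. Only Mrps16 (-0.16) and Mrps18c (-0.046) were below 0, but Mrpl33 (0.016) and Mrps35 (0.062) were near it. Mrps18c, the member with the largest difference between genotypes, was thus 1 of several that hardly followed the rest. Mrpl32 (0.72) was above the median, Mrpl42 (0.58) was just below it, and Mrpl16 (0.44), Mrpl23 (0.40) and Mrpl47 (0.36) were further below.

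**Figure D4:**
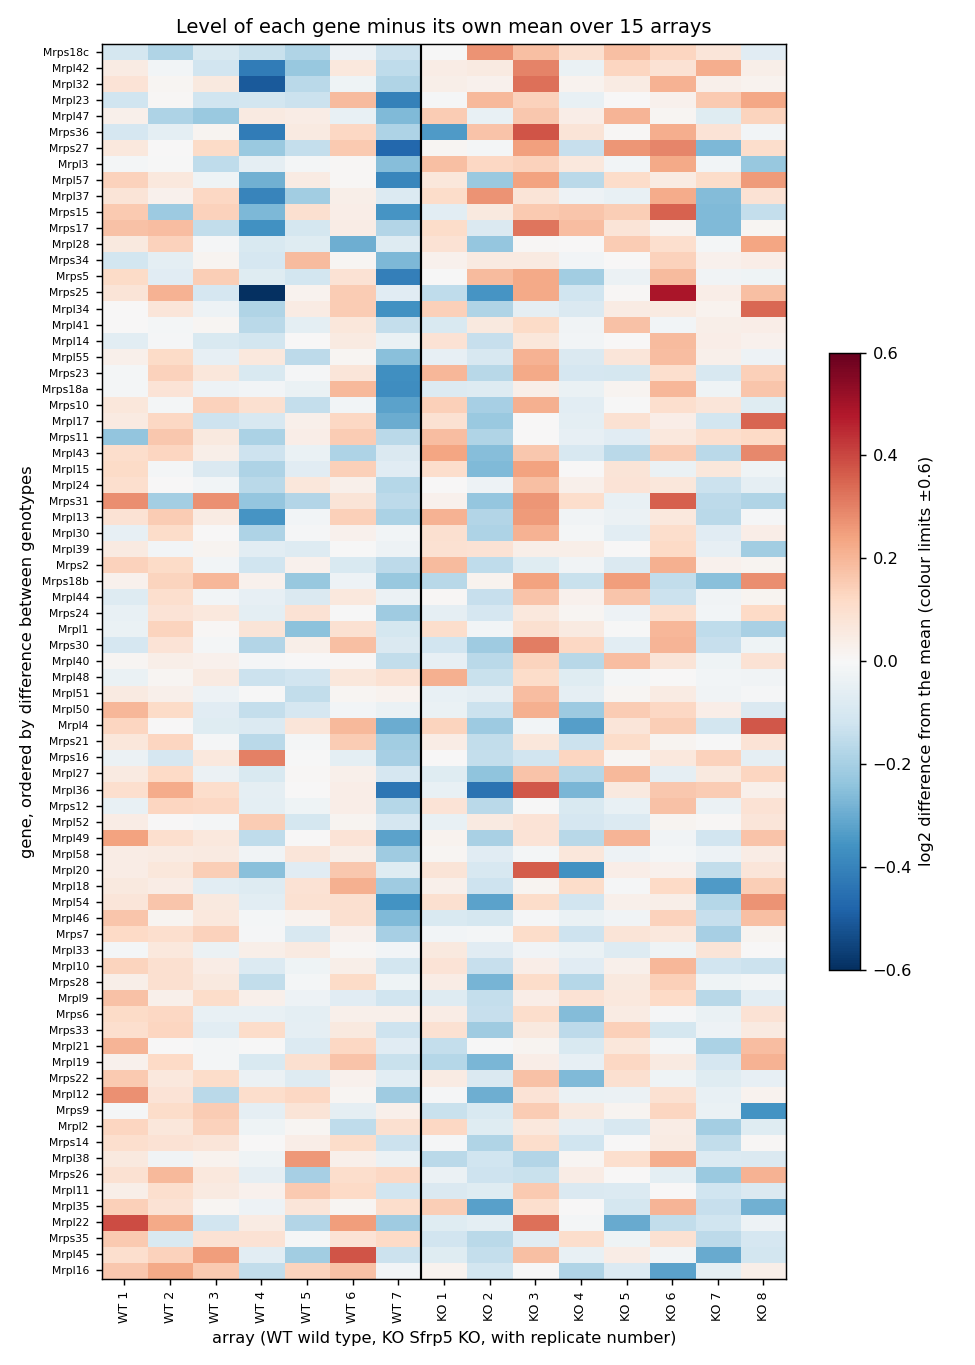
Level of each of the 77 genes in each array minus the gene's own mean over 15 arrays (log2, colour), genes ordered from the highest to the lowest difference between genotypes; the black line parts wild type (left) from KO (right). Whole columns share a colour: 8 of 77 genes were above their mean in wild-type array 7 and 65 in KO array 3.

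The named genes outside the module most like its mean, by r within genotypes over 15 arrays, were Ncbp2 (0.95), which encodes a subunit of the nuclear cap-binding complex, Aifm2 (0.94), a coenzyme Q reductase, Bcs1l (0.93), an assembly factor of respiratory complex III, Timm23 (0.93), the inner-membrane import channel, and Ndc1 (0.92), a nuclear pore protein. After quantile normalization these values were 0.93, 0.91, 0.86, 0.88 and 0.87. Their own differences between genotypes ran from -0.058 (SE 0.10, Bcs1l) to 0.022 (SE 0.054, Timm23).

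The arrays that were low in the module were also low in adipocyte markers. The 5 lowest arrays by module mean (wild type 4 and 7, KO 2, 4 and 7, all at 8.975 or below) were the 5 lowest by the mean of 12 adipocyte markers, at 11 to 11.17, whereas the other 10 were at 9.0 to 9.15 in the module and 11.21 to 11.44 in the markers. They were the same arrays after quantile normalization of the module. They include both arrays of high epididymis markers, but 3 of the 5 had epididymis markers in the range of the rest. Of these 5 arrays, 4 were among the 5 lowest in complex I genes and 1 was among the 5 lowest in cytosolic ribosomal protein genes. Adipocyte markers were 11.24 ± 0.14 in the 7 wild-type arrays and 11.26 ± 0.13 in the 8 KO arrays (SD), a difference of 0.023 (SE 0.071). Means of mesothelial markers were 8.23 to 8.48 in the 5 low arrays and 7.34 to 8.42 in the other 10. Those of endothelial markers were 8.91 to 9.28 and 9.19 to 9.48, and those of macrophage markers 8.03 to 8.56 and 8.25 to 9.14. Between genotypes mesothelial markers differed by 0.29 (SE 0.18), endothelial by -0.094 (SE 0.088) and macrophage by 0.053 (SE 0.13). In a bulk sample, fewer adipocytes, less RNA per adipocyte and a different mix of other cells cannot be told apart. Their part in the module's variation was not tested.

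**Figure D5:**
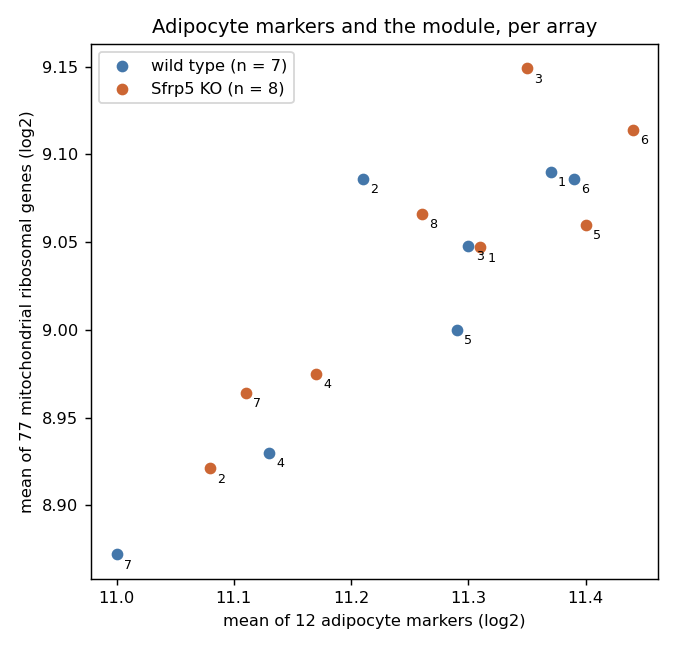
Mean of the 77 genes (vertical) against the mean of 12 adipocyte markers (horizontal) in each array, log2, coloured by genotype and numbered by replicate. The 5 arrays lowest in the markers (11 to 11.17) are the 5 lowest in the module.

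Other genes of mitochondrial translation showed a mixed picture. Of 4 measured ribosomal proteins with symbols outside the rule, Chchd1 was 10.32 ± 0.068 (SD, n = 7) and 10.43 ± 0.051 (SD, n = 8), a difference of 0.11 (SE 0.045, limma adjusted p = 0.432), and Dap3, a GTP-binding protein of the small subunit, differed by -0.13 (SE 0.055, limma adjusted p = 0.449). Among 23 ribosome assembly genes 11 were higher (median -0.0010). Those of lowest p were Mterf4, which guides a ribosomal RNA methyltransferase (0.16, SE 0.074), and Malsu1, an assembly factor of the large subunit (0.093, SE 0.047). After quantile normalization Malsu1 differed by 0.025 (SE 0.045) and Chchd1 by 0.074 (SE 0.043), whereas Mterf4 (0.16) and Dap3 (-0.14) changed little. Among 18 translation factor and mRNA stability genes 9 were higher (median -0.0031), and Lrpprc, which stabilises mitochondrial mRNAs, differed by -0.17 (SE 0.067, limma adjusted p = 0.400) and Mrrf, the ribosome recycling factor, by -0.16 (SE 0.081).

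Of 16 mitochondrial tRNA synthetase genes 8 were higher (median -0.011), with Lars2 at -0.13 (SE 0.064) and Vars2 at -0.12 (SE 0.083). Of 19 genes that copy or transcribe mitochondrial DNA 9 were higher (median -0.013), with the polymerase gene Polg at -0.15 (SE 0.074) and Twnk at -0.12. Of 11 regulators of mitochondrial biogenesis 9 were higher (median 0.055), with Gabpa, an ETS factor, at 0.15 (SE 0.079) and the coactivator Ppargc1b at 0.13 (SE 0.085). Tfam, which packages mitochondrial DNA, differed by 0.095 (SE 0.097) and Ppargc1a by 0.083 (SE 0.23). No gene of these lists passed limma's adjusted threshold.

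On deposited values the mean difference of the module, 0.021, was above those of the assembly (-0.0088), translation factor (-0.021) and tRNA synthetase (-0.018) lists and below those of oxidative phosphorylation and cytosolic ribosomal proteins. Oxidative phosphorylation genes were higher in KO mice in 28 of 35 for complex I (mean 0.056) and in 30 of 39 for complexes II to V (mean 0.052). Cytosolic ribosomal protein genes were higher in 48 of 58 (mean 0.075). Of all named genes with a mean level of 10 or more, 59.7% were higher. After quantile normalization these means were 0.0092, -0.0017 and 0.020, next to 0.0056 in the module. The counts were then 20 of 35, 18 of 39 and 34 of 58, and the share of named genes of that level was 37.2%. Per array, the centred module mean minus the centred oxidative phosphorylation mean differed by -0.033 (SE 0.024) between genotypes, and minus the cytosolic ribosomal mean by -0.054 (SE 0.055), neither tested. Cytosolic ribosomal protein genes were above the wild-type mean in all 8 KO arrays, and the module in 5.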

How the data were processed

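The authors deposited log2 expression values for 35557 probe sets on 15 arrays. The submitters' processing notes name RMA, Affymetrix Expression Console 1.1.2800.19935, affy 1.18 and limma, without saying if the arrays were normalized as 1 set. RMA equalises the distributions of arrays run together, which takes out a shift shared by most genes in them. The deposited values still differed in distribution between arrays, since a further quantile normalization changed them. Per the labels' protocols, RNA was amplified with a NuGEN kit. Array medians were 6.98 to 7.07; the number of arrays limits the precision.

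Probe sets were named by the platform annotation (21789 with 1 symbol, 1621 with several, 12147 with none). All probe sets were fitted with limma 3.58.1 (R 4.3.3, lmFit, eBayes, two-sided, Benjamini-Hochberg over all probe sets, threshold 0.05). The fit was also run on simulated arrays whose shifts were larger than any difference in the module. That run does not cover differences of the size seen here. SEs of single genes are limma's; those of means are over arrays. Figures used matplotlib 3.10.9. The members and lists were chosen with earlier results of these data known. Named members are the 8 of lowest p on each side, those on chromosome 19, those with probe sets of opposite sign and a fixed set; in each pathway list, the 2 of lowest p; and the 5 genes most like the module. The alternatives were other scalings, a filter on dim probe sets (33rd percentile), variance models, array weights, probe-set means, arrays left out and a replicate block. Wild-type arrays come first in the submitters' array order, so order and genotype cannot be told apart. An unexplained number in the array descriptions sets KO arrays 7 and 8 with the wild type; leaving both out was an alternative. Replicates are mice, per the labels.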

Additional observations from a re-analysis of the deposited data

Results flagged for a closer look

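In 6 of 72 groups of 7 or 8 values examined, 1 array stood apart from the rest of its genotype by Dixon's ratio of the gap to the range. Chance gives this in about 1 of 20 independent groups. The 72 groups come from the same arrays and 1 contrast was flagged on both scalings, so the count cannot be set against that share. The large minus small subunit contrast of wild-type array 3 was -0.0546, with the next at -0.0025 and the highest at 0.033, and it was -0.0548 after quantile normalization. Mrpl11 was 10.25 in KO array 3, with the next KO array at 10.09. Mrpl12, a stalk protein, was 8.705 in KO array 2 (high epididymis markers), with the next at 8.955. Mrps18a was 9.249 in wild-type array 7, the array with the lowest module mean, with the next at 9.58. Mrps34 was 8.189 in KO array 6, with the next at 8.106.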

How the results depend on the processing

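No member passed limma's adjusted threshold of 0.05 under any of 25 alternatives, and 4 to 8 had an unadjusted p under 0.05. Leaving out 1 array at a time, the module mean difference was -0.0030 to 0.038, below 0 only without wild-type array 7, the large minus small difference was -0.021 to -0.0033, members higher in KO mice numbered 37 to 54, and 4 to 7 members had an unadjusted p under 0.05. Under the other settings the module mean difference was 0.0056 to 0.028, large minus small -0.018 to -0.0044, and members higher 40 to 50; the median over members differed by 0.0056. Whether replicate numbers 1 to 7 pair the mice is unknown. Deviations of same-numbered arrays correlated at -0.12 to 0.25, and without mismatched arrays for comparison these values cannot decide it. With the replicate block the module differed by 0.017, 43 members were higher, 6 had an unadjusted limma p under 0.05 and 0 passed. The same arrays without the block, chosen after seeing the data, gave 0.017, 43, 5 and 0. Of the 32 named members, 9 changed sign under at least 1 setting, Mrps12 in 13 and Mrpl49, Mrps16 and Mrps18b in 7 each; Mrps18c kept its sign at 0.16 to 0.26. Scanner files were not used here, so signal over background is unknown.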
